A study of Homo sapiens with 6 samples.

Results

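The expression of 8 transcription factors that mark or specify neuroendocrine (NE) cells was examined in DMS53, an established NE small cell lung cancer (SCLC) cell line, with and without enforced expression of ONECUT2 (OC2). The genes were NEUROD1, INSM1, NKX2-1, NKX2-2, NFIB, MYT1, ISL1 and POU3F2. They were chosen by name and found by symbol among the 62696 genes of the count files. RNA-Seq libraries came from 3 control cultures and 3 OC2-OE cultures. Control cells were transduced with an empty lentiviral backbone, pLenti-C-mGFP-P2A-Puro, and OC2-OE cells with the same backbone carrying the ONECUT2 open reading frame fused to mGFP. Both groups thus carried mGFP and the puromycin resistance gene, and both were puromycin selected. The study calls them 3 independent experiments per condition, and all came from this cell line, so that the p-values measure the spread between these cultures.

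NE cells of the lung are scattered epithelial cells that store amines and peptides in dense-core granules. NEUROD1 is a basic helix-loop-helix activator that binds E-box DNA together with an E protein, and it names the SCLC-N subtype. INSM1 is a zinc finger repressor that recruits the RCOR1 and KDM1A histone demethylase complex and is used as a marker of NE tumours. NKX2-1 and NKX2-2 are homeodomain factors, the former required for lung and thyroid development and the latter for pancreatic endocrine and ventral neural cells. NFIB is a CCAAT-box binding factor tied to SCLC metastasis in mice. MYT1, ISL1 and POU3F2 are a zinc finger, a LIM homeodomain and a POU domain factor of neurons and endocrine cells.

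The libraries held between 16533284 and 19099337 counted read pairs. ONECUT2 had 394 to 465 counts in the control libraries and 68853 to 74031 in the OC2-OE libraries, where reads of the introduced and the endogenous gene cannot be told apart. The NE markers CHGA, CHGB, SYP and NCAM1 were detected in every library of both groups, as was INSM1, which is itself among the 8 factors. Detection cannot decide whether NE identity was kept, since a marker that fell but stayed detected also passed. The log2 fold changes of OC2-OE against control were 1.06 for CHGA, -0.14 for CHGB, -0.44 for SYP and -1.996 for NCAM1. Mitochondrial genes took 2.28% to 2.47% of counts in control and 2.88% to 2.90% in OC2-OE libraries. Values are given as CPM, the share of a library's TMM-scaled total that a gene takes, and differences are log2 fold changes of OC2-OE against control from edgeR's quasi-likelihood test, with p-values adjusted by the Benjamini-Hochberg method over 17307 genes and called under 0.001.

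Of the 8 factors, 5 fell, 1 rose, 1 was not called and 1 had too few counts to be tested. NEUROD1, NKX2-1, INSM1 and POU3F2 fell by 1.43 to 2.32 on the log2 scale, NFIB fell by 0.50, and MYT1 rose by 0.64. A fall past 1 on the log2 scale with a call was shown by 4 of the factors and by 9.04% of all tested genes. ISL1 did not pass the test, and NKX2-2 was close to undetected in both groups. Against these counts, 28.7% of all tested genes were called lower and 27.8% were called higher, or 56.5% in either direction. The median log2 fold change of the 7 tested factors was -1.43, beside 0.01 for all tested genes. The 7 factors lay above the level required by the low-count filter in every library of both groups, so that none entered through 1 group alone. In 5 of them all OC2-OE libraries lay below all control libraries and in 1 above, which also held for 36.7% and 36.5% of all tested genes, so that groups without overlap were the usual case. All 8 factors were chosen with earlier results of these data known. INSM1 and NFIB are also among published subtype markers that the study listed as altered in these libraries. For these reasons the direction is not independent evidence. In RNA from whole cultures, fewer cells of a type and less RNA per cell cannot be told apart.

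**Figure D1:**
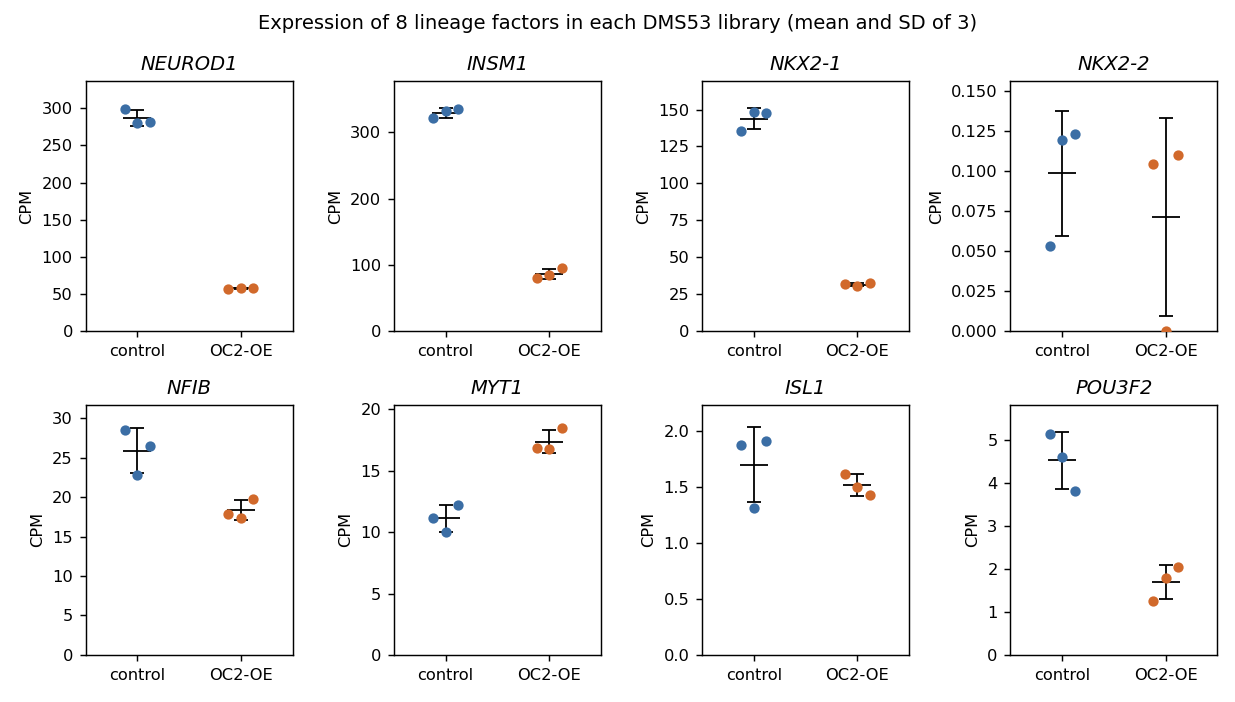
Normalized expression (CPM, vertical axis from 0, a scale of its own in each panel) of the 8 factors in the 3 control and 3 OC2-OE libraries, with points for libraries and bars for the mean and SD. The OC2-OE libraries lie below all control libraries for NEUROD1, INSM1, NKX2-1, NFIB and POU3F2, above them for MYT1, and overlap with them for ISL1 and NKX2-2.

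NEUROD1 (ENSG00000162992.5, chr2:181668295-181680827, minus strand) had 299.6, 280.6 and 281.3 CPM in control replicates 1, 2 and 3. In the OC2-OE libraries it had 57.4, 57.5 and 58.1 CPM. The groups were far apart. The coefficient of variation of the OC2-OE libraries was 0.70%, below the 3.08% that counting alone gives, so that their closeness carries no information on the cultures. NEUROD1 fell by 2.32 on the log2 scale (standard error 0.033, 95% interval -2.38 to -2.25, adjusted p = 2.94e-94 by edgeR), which left 20.1% of the control level. Only 1.95% of the tested genes had a lower fold change. A stretch of 236 exonic bases is shared on the same strand with CERKL, and reads touching it would not be counted for either gene under the counter's defaults.

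NKX2-1 (ENSG00000136352.20, chr14:36516392-36521149, minus strand) had 135.8, 148.2 and 147.3 CPM in the control libraries and 31.7, 30.4 and 32.7 CPM in the OC2-OE libraries. No library of either group came near the other group. NKX2-1 fell by 2.18 (standard error 0.043, 95% interval -2.27 to -2.10, adjusted p = 7.27e-79 by edgeR), to 22% of control. The ratio of NEUROD1 to NKX2-1 counts was 1.89 to 2.21 in control and 1.78 to 1.89 in OC2-OE libraries, ranges that met without overlapping. For NKX2-1, 1033 of 3165 exonic bases (32.6%) are shared on the same strand with ENSG00000257520.2, an annotated gene that spans NKX2-1 and SFTA3. Under the counter's defaults the counts of NKX2-1 would rest on the other 2132 bases.

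INSM1 (ENSG00000173404.5, chr20:20368104-20370949, plus strand), annotated as a single exon, had 320.9, 331.4 and 334.8 CPM in the control libraries. It had 80.1, 85.0 and 94.7 CPM in the OC2-OE libraries. INSM1 fell by 1.93 (standard error 0.035, 95% interval -1.996 to -1.86, adjusted p = 3.19e-41 by edgeR), to 26.3% of control. OC2-OE replicate 3 was the highest of its group, and the coefficient of variation there was 8.59%, where counting alone gives 2.52%. The fall of INSM1 was smaller than that of NEUROD1 in each pairing of libraries: the ratio of INSM1 to NEUROD1 counts was 1.07 to 1.19 in control and 1.40 to 1.63 in OC2-OE libraries.

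POU3F2 (chr6:98834574-98839458, plus strand), a POU factor of neural progenitors also known as BRN2 and likewise annotated as a single exon, was expressed at a low level. It had 5.14, 4.60 and 3.81 CPM in control and 1.25, 1.79 and 2.03 CPM in OC2-OE libraries. The groups did not overlap, with OC2-OE replicate 1 the lowest and control replicate 1 the highest. POU3F2 fell by 1.43 (standard error 0.19, 95% interval -1.81 to -1.04, adjusted p = 9.31e-11 by edgeR). Its OC2-OE counts were 24, 31 and 37, and counting error alone gives a coefficient of variation of 18.1% there, beside 23.6% between the libraries.

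NFIB (chr9:14081843-14398983, minus strand) had 28.5, 22.8 and 26.4 CPM in control and 17.9, 17.4 and 19.8 CPM in OC2-OE libraries. The groups did not overlap, with control replicate 2 the nearest to the OC2-OE libraries. NFIB fell by 0.50 (standard error 0.073, 95% interval -0.64 to -0.35, adjusted p = 1.42e-09 by edgeR), to 70.8% of control. It was called, but at a minimum change of 2-fold it would not be.

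MYT1 (chr20:64102394-64242253, plus strand) moved the other way. It had 11.2, 9.98 and 12.2 CPM in control and 16.9, 16.8 and 18.4 CPM in OC2-OE libraries, and all OC2-OE libraries lay above all control libraries. MYT1 rose by 0.64 (standard error 0.088, 95% interval 0.47 to 0.82, adjusted p = 9.82e-11 by edgeR), a 1.56-fold change that also stayed below 2-fold. For every NEUROD1 read pair the control libraries held 0.036 to 0.043 of MYT1, and the OC2-OE libraries 0.292 to 0.317.

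ISL1 (chr5:51383448-51394730, plus strand) had 1.87, 1.31 and 1.91 CPM in control and 1.62, 1.501 and 1.43 CPM in OC2-OE libraries, and the groups overlapped. Its log2 fold change was -0.17 (standard error 0.25, 95% interval -0.67 to 0.34, adjusted p = 0.568 by edgeR). With 22 to 35 counts in a library, a difference within this interval was not detectable. NKX2-2 (chr20:21511017-21514064, minus strand) had 1, 2 and 2 counts in control and 2, 0 and 2 counts in OC2-OE libraries. All were at or under the floor of 3 counts per library, so no fold change is given, and the floor covers counting error only.

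Levels of different genes were compared per length, as RPKM, the CPM divided by the annotated exon length in kilobases. In control cells INSM1 was highest at 115.6 ± 2.54 RPKM (SD, n = 3), followed by NKX2-1 at 45.4 ± 2.19 and NEUROD1 at 35.0 ± 1.31 RPKM. These 3 did not overlap in any library. NFIB at 2.03 ± 0.23 RPKM, MYT1 at 1.62 ± 0.16, POU3F2 at 0.925 ± 0.14 and ISL1 at 0.603 ± 0.12 RPKM followed far below, and no neighbours in this order overlapped, although the lowest NFIB library at 1.78 RPKM lay next to the highest MYT1 library at 1.77 RPKM. In OC2-OE cells INSM1 was at 30.4 ± 2.61, NKX2-1 at 9.98 ± 0.36 and NEUROD1 at 7.03 ± 0.049 RPKM. MYT1 at 2.53 ± 0.14 RPKM then lay above NFIB at 1.44 ± 0.10, and ISL1 at 0.538 ± 0.034 above POU3F2 at 0.346 ± 0.082 RPKM, so that the order of both pairs was the opposite of that in control. An exon that is annotated but unused lowers an RPKM, and the NKX2-1 value would be further lowered if reads on its shared bases were not counted.

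The summed expression of the 8 factors was 799.0 to 807.9 CPM in control and 206.9 to 227.3 CPM in OC2-OE libraries. NEUROD1 took 34.8% to 37.3% of the summed counts in control and 25.6% to 27.7% in OC2-OE libraries. INSM1 took 39.97% to 41.5% and 38.7% to 41.7%, with overlapping groups. MYT1 took 1.25% to 1.51% in control and 7.98% to 8.15% in OC2-OE libraries, and NFIB took 2.85% to 3.55% and 8.26% to 8.72%. A share moves with the other factors as well as its own, and that of NFIB was higher in OC2-OE libraries although its CPM was lower.

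For 4 called factors whose start regions hold exon-free sequence, the reference sequence before the transcription start is given, since the introduced OC2 is itself a DNA-binding factor. The RefSeq table used here (GRCh38.p14) gave 18 starts for 7 of the 8 factors, and INSM1 was not analysed here. Windows of 250 bases upstream of each start were searched on both strands for the core letters bound by ONECUT factors (ATTGAT or ATCGAT), for E-boxes of the NEUROD1 kind (CAGATG or CAGCTG) and for the NKX2 core CAAGTG. None of the 18 windows held the ONECUT letters, which stood in 6.19% of the 34788 windows of all genes, and no conclusion on OC2 binding follows from their absence in so short a window. E-boxes stood in 24.2% and CAAGTG in 9.52% of all windows. E-box letters stood in 1 ISL1, 1 NKX2-2 and 2 NFIB windows, and CAAGTG or its complement in 1 NKX2-1, 1 NKX2-2 and 1 NFIB window. For NFIB 1 of its 10 windows is shown, the one with an E-box nearest to its start, and for NKX2-1, POU3F2 and MYT1 every window. Their exon-free parts follow, 5′ to 3′ on the strand of the gene, with matches to these letters in capitals.
POU3F2 (chr6:98834324-98834573, plus strand): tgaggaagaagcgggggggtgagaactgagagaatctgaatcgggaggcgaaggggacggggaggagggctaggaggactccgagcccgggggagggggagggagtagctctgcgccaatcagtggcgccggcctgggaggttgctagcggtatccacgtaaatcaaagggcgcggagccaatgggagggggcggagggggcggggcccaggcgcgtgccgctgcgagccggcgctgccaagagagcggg
NKX2-1, upstream start (chr14:36520287-36520482, minus strand): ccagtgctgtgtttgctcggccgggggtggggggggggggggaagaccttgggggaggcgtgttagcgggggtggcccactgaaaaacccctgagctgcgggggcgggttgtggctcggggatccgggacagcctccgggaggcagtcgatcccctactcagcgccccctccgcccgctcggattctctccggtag
NKX2-1, downstream start (chr14:36519694-36519806, minus strand): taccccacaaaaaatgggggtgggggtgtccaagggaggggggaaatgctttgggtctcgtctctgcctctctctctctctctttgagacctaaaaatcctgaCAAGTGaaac
NFIB (chr9:14322388-14322637, minus strand): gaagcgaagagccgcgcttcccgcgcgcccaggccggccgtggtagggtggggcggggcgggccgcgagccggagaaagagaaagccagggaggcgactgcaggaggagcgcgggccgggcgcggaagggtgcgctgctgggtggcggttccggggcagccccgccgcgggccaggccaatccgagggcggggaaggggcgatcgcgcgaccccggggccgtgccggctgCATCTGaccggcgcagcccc
MYT1 (chr20:64164202-64164451, plus strand): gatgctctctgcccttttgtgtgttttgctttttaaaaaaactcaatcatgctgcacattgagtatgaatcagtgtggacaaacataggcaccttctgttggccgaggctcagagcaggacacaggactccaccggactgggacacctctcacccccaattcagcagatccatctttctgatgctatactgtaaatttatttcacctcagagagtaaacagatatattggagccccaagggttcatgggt
The downstream NKX2-1 window carries CAAGTG from 147 bases upstream of that start, and the NFIB window carries CATCTG from 20 bases upstream. The POU3F2, MYT1 and upstream NKX2-1 stretches hold none of the letters searched. The starts shown for NFIB, MYT1 and NKX2-1 lie inside the annotated bounds of these genes. A match is a string of letters and not a known site.

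Members of the same gene families were mostly too low to be tested or not called lower. Of 20 listed family members 9 could be tested, of which 2 fell, 4 rose and 3 were not called, with a median log2 fold change of 0.48, beside 28.7% lower and 27.8% higher among all tested genes. NEUROG3, the factor that initiates the endocrine programme in the pancreas and there activates NEUROD1, had 11.6, 13.98 and 11.8 CPM in control and 1.25, 1.33 and 1.32 CPM in OC2-OE libraries. It fell by 3.26 (standard error 0.16, adjusted p = 4.49e-40 by edgeR), further than any of the 8 factors. NEUROD4, a close relative of NEUROD1, rose by 0.72 from 3.06 ± 0.26 CPM (SD, n = 3), and the NEUROD1 to NEUROD4 count ratio went from between 84.7 and 99.9 in control to between 11.3 and 11.6 in OC2-OE libraries. NEUROD2 and NEUROD6 had no counts in any library.

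The nuclear factor I family went in both directions. NFIA rose by 0.66 and NFIC by 0.73, while NFIX fell by 0.39, as NFIB did by 0.50. NFIA had 24.5 to 26.9 CPM in control and 39.5 to 41.8 CPM in OC2-OE libraries. The NFIB to NFIA count ratio was 0.929 to 1.06 in control and 0.416 to 0.501 in OC2-OE libraries, with no overlap. ISL2, the paralog of ISL1, rose by 0.80 (standard error 0.17, adjusted p = 2.24e-05 by edgeR) from 2.59 ± 0.45 to 4.52 ± 0.44 CPM (SD, n = 3). For POU3F4, a paralog of POU3F2 on chromosome X, the log2 fold change was -0.17 (95% interval -0.47 to 0.13) and the test was not passed. INSM2 and NKX2-8 were not called either. NFIA, NFIX, POU3F4, INSM2, NEUROD2 and NEUROD6 fall outside the rule for named genes and were named with their values known.

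**Figure D2:**
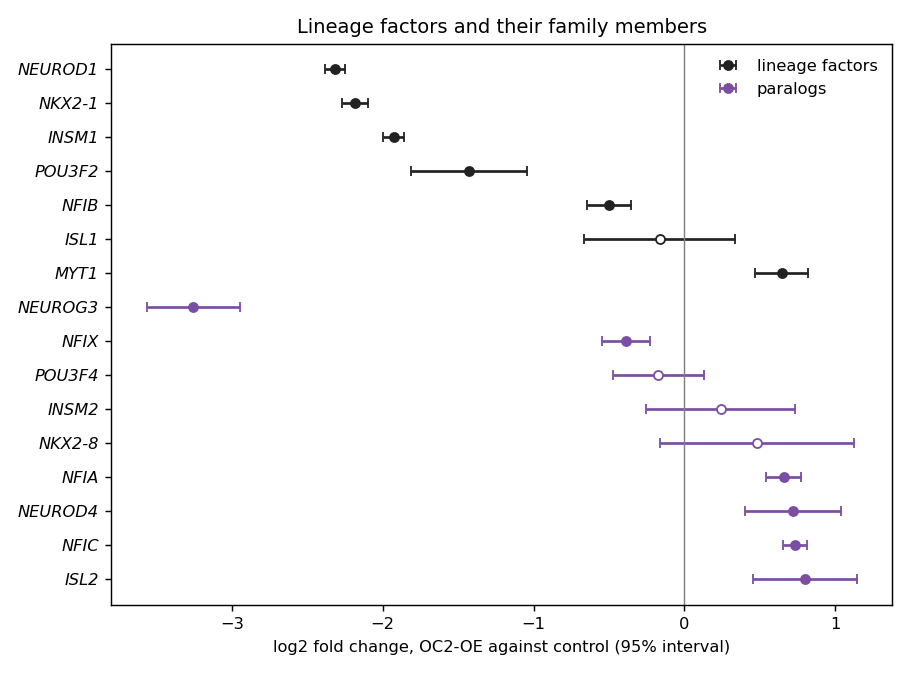
Log2 fold change of OC2-OE against control (horizontal axis, with 95% intervals) for the 7 tested factors and their 9 tested family members. Filled points had an adjusted p under 0.001 and open points did not. NEUROG3 lies furthest to the left at -3.26, and MYT1 is the only called factor to the right of 0.

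Genes of proteins that act with the 8 factors included called genes in both directions. Of 21 listed partners and corepressors 18 were tested, of which 9 fell, 6 rose and 3 were not called, with a median of -0.09, beside 56.5% of all tested genes called in either direction. Among the E proteins that pair with NEUROD1, TCF12 fell by 0.53, whereas TCF3 rose by 0.19 and TCF4 by 0.51. In the complex that INSM1 recruits, RCOR1 rose by 1.02, from 18.9 to 23.3 CPM in control to 43.2 to 45.2 CPM in OC2-OE libraries, and KDM1A rose by 0.17, while RCOR2 fell by 0.75. The deacetylases HDAC1 and HDAC2, which work in the same corepressor complex, fell by 0.21 and 0.45. LMO3, a LIM-only protein that binds LDB1 as ISL1 does, fell by 2.08 (standard error 0.043, adjusted p = 9.32e-68 by edgeR), from 148.1 to 158.4 CPM to 32.5 to 38.6 CPM. TLE3, a Groucho corepressor for homeodomain factors, fell by 0.90. TCF3, TCF4, TCF12, KDM1A, HDAC1 and HDAC2 fall outside the rule for named genes and were chosen after their values were seen.

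Of 11 listed antagonists of NE and neural fate 10 were tested, of which 3 fell, 3 rose and 4 were not called, near the 28.7% lower and 27.8% higher of all tested genes. REST, the repressor of neuronal genes in other tissues, rose by 0.72 (standard error 0.091, adjusted p = 5.77e-12 by edgeR), from 9.31 to 11.1 CPM in control to 15.9 to 16.9 CPM in OC2-OE libraries. YAP1, the Hippo pathway coactivator that names the SCLC-Y subtype, rose by 3.34 (standard error 0.15, adjusted p = 1.52e-41 by edgeR) from 0.984 to 1.49 CPM to 13.1 to 13.3 CPM. HES1 and HEY2, Notch-induced repressors of proneural genes, fell by 1.68 and 1.504.

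Other transcription factors of neural and foregut endocrine cells were listed as well. Of 25 listed 18 were tested, of which 9 fell, 1 rose and 8 were not called, with a median of -0.36, beside 28.7% lower and 27.8% higher among all tested genes. SOX3 (outside the rule for named genes) is 1 of the 9 and passed the low-count filter through the control libraries alone. The difference from all genes was not tested. HES6, a HES relative that opposes HES1 and promotes neuronal differentiation, fell by 1.45 from 161.9 to 187.7 CPM to 63.7 to 65.8 CPM. SOX2 fell by 1.03, SOX4 by 0.93 and FOXA2, a forkhead factor of foregut endoderm, by 0.92.

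Genes that carry out NE functions were split. All 33 listed effector genes were tested, of which 21 fell, 8 rose and 4 were not called, with a median of -0.52, beside the same shares of all tested genes. GRP, the gastrin-releasing peptide, fell by 4.41, from 128.2 to 137.8 CPM in control to 5.79 to 6.97 CPM in OC2-OE libraries. PCSK1, the prohormone convertase that acts first in the secretory pathway, fell by 2.61, and DDC, which makes dopamine and serotonin, fell by 2.52. PCSK2, the second convertase, rose by 5.13 (standard error 0.060, adjusted p = 1.24e-103 by edgeR), from 4.60 to 4.92 CPM to 164.6 to 166.6 CPM. The list thus held both large falls and the largest rise among the genes named here other than ONECUT2.

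Lung and thyroid genes, many of them known targets of NKX2-1, mostly fell. Of 18 listed 10 were tested, of which 8 fell, 1 rose and 1 was not called, with a median of -1.29, beside 28.7% lower among all tested genes. SFTPB, which encodes surfactant protein B, had 20.2 to 21.4 CPM in control and 1.88 to 2.54 CPM in OC2-OE libraries. SFTPB fell by 3.25 (standard error 0.12, adjusted p = 1.84e-50 by edgeR), SFTPD fell by 2.93 and SFTPA2 fell by 2.40. LAMP3, a lysosomal membrane protein of alveolar type II cells, rose by 0.75 and was the exception (it falls outside the rule for named genes).

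Proliferation genes were measured beside the 8 factors. All 12 listed fell, beside 28.7% of all tested genes called lower, with a median of -2.24, and their summed level was 2262 to 2330 CPM in control and 539.8 to 559.4 CPM in OC2-OE libraries. PLK1, a mitotic kinase, fell by 2.75, and BIRC5, TOP2A and MKI67 by 2.28 to 2.29. Their part in the changes of the 8 factors was not tested. Markers of other cell types were low, and their counts are to be read beside 27.8% of all tested genes called higher. The summed level of 6 immune markers was 3.85 to 4.42 CPM in control and 7.44 to 9.06 CPM in OC2-OE libraries. Of the 2 tested, CD14 was higher in OC2-OE cells by 0.71 and LYZ by 2.44. LYZ, at 0.299 to 0.535 CPM in control and 1.85 to 2.63 CPM in OC2-OE libraries, passed the low-count filter (0.57 CPM) through OC2-OE alone. No weight is placed on its rise for that reason. CD3E was at 0 in all libraries and PTPRC at 0 in control libraries. The summed level of 6 fibroblast markers was 21.2 to 23.9 CPM in control and 28.1 to 32.1 CPM in OC2-OE libraries, nearly all of it COL1A1. COL3A1, DCN and LUM stayed at or below 0.25 CPM. Of the 3 tested 2 rose, COL1A1 by 0.37 and PDGFRB (outside the rule for named genes). PDGFRB, at 0 to 0.299 CPM in control and 0.693 to 1.21 CPM in OC2-OE libraries, likewise passed the filter through OC2-OE alone, and no weight is placed on its rise. The summed level of 4 endothelial markers was between 12.7 and 15 CPM in control and 4.17 to 4.73 CPM in OC2-OE libraries, and VWF did not exceed 0.33 CPM. Of the 3 tested 2 fell, KDR by 2.77 and CDH5 (outside the rule for named genes). CDH5 had 1 count in each OC2-OE library, beside 0.837 to 1.29 CPM in control. It passed the filter through control alone, and no weight is placed on its fall. The part of the markers of other cell types in the changes was not tested.

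The genes whose values ran closest to the called factors that fell were found by the root mean square difference of 6 log2 values (CPM plus 0.5), each gene centred on its control mean, among 11090 genes. For NEUROD1 the closest were MKI67 at 0.025 and TOP2A at 0.025, both proliferation genes. For NKX2-1 they were KCNK3, a potassium channel gene, at 0.048 and CEP55, a cytokinesis gene, at 0.051. For INSM1 they were DOK6 and FHOD3, for POU3F2 TENM3 and AQP7, and for NFIB XRCC2 and ZNF253, at between 0.042 and 0.097. With only 6 libraries in 2 groups, this measure mainly ranks genes by an equal difference between the groups.

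The nearest tested genes on the chromosome were examined for each factor, up to 3 on each side. Of the 44 distinct neighbours 14 fell and 14 rose, with a median of 0.10, beside 28.7% of all tested genes called lower and 27.8% called higher. These shares are close to each other, and the counts for single regions rest on 4 to 6 genes and were not tested. In the NKX2-1 region 5 of 6 neighbours fell and none rose, with a median of -3.03. SFTA3, 2563 bases downstream and transcribed from the same strand, had 43.5 to 49.5 CPM in control and 2.80 to 3.50 CPM in OC2-OE libraries, and fell by 3.83 (standard error 0.091, adjusted p = 2.35e-70 by edgeR). NKX2-1-AS1, which overlaps NKX2-1 on the opposite strand (chr14:36519278-36523016), fell by 2.93 from 7.57 ± 0.61 to 0.983 ± 0.30 CPM (SD, n = 3), and the counting used the strand. ENSG00000283098, which overlaps NKX2-1 from the plus strand, fell by 1.17. ENSG00000257520.2 went from 0.853 ± 0.090 CPM in control to 0.092 ± 0.032 CPM in OC2-OE libraries (SD, n = 3). It passed the low-count filter (0.57 CPM) through control alone, so that its fold change is not given. It is 1 of the 5 that fell, and the median of this region rests partly on it. ENSG00000258661, 125.9 kb away, had 9.21 ± 1.68 CPM in control and 0.565 ± 0.21 CPM in OC2-OE libraries (SD, n = 3). Its OC2-OE mean lay under the filter level of 0.57 CPM. It likewise passed the filter through control alone, so that its fold change is not given. It is also 1 of the 5 that fell and enters that median. NKX2-8, between NKX2-1 and ENSG00000258661 at 58.9 kb, had a log2 fold change of 0.48 and was not called at a level near 1 CPM (it falls outside the rule for named genes).

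INSM1 had ENSG00000280229 beside it, 1602 bases upstream on the same strand (chr20:20363691-20366502), which fell by 2.82 (standard error 0.089, adjusted p = 1.18e-57 by edgeR) from 34.6 ± 1.80 to 4.87 ± 0.36 CPM (SD, n = 3). RALGAPA2 on the other side of INSM1 fell by 0.75, and KIZ, 755.0 kb away, rose by 1.06. Around NEUROD1, CERKL fell by 0.73, UBE2E3 by 1.98 and PDE1A by 1.32, whereas ITGA4, an integrin subunit gene 129.4 kb away, rose by 2.16 and PPP1R1C by 0.37. Around MYT1, 3 of 4 neighbours rose, RGS19 by 0.98, TCEA2 by 0.46 and PCMTD2 by 0.40, and none fell, where 27.8% of all tested genes were called higher.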

How the data were processed

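RNA-Seq libraries of 3 control and 3 OC2-OE cultures of DMS53 were analysed. The authors prepared stranded poly(A) libraries. Per the submitters' processing notes, FastQC 0.11.8, STAR 2.7.9a and featureCounts 1.6.0 were used on GRCh38. The deposited values are raw counts of read pairs per gene (GENCODE 42, strand used), with the summed exon length. Symbols were matched for 62672 of 62696 genes. Counts were normalized (TMM), filtered (filterByExpr) and tested with edgeR 4.0.16 in R 4.3.3 (quasi-likelihood, robust, group only), with Benjamini-Hochberg adjustment over 17307 genes and a threshold of 0.001. Standard errors were derived from the F statistic and the fold change. CPM and RPKM were computed from the deposited counts, so that low genes are limited by counting error. The steps were tested on simulated data. Promoters came from RefSeq (GRCh38.p14). The factors and gene lists were chosen with earlier results of these data known. The named genes were the factors, ONECUT2, YAP1, REST, the 4 largest called changes per list at a mean log2 CPM of at least 0, called neighbours and the 2 nearest patterns per called factor. The nearest patterns of MYT1 are not reported here. Alternatives were other normalizations, filters and thresholds, DESeq2 1.42.0, limma 3.58.1 (voom), a replicate block, ONECUT2 left out and each library left out in turn.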

Additional observations from a re-analysis of the deposited data

How the results depend on the processing

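The 7 tested factors kept the sign of their fold change under all 17 alternatives. Those that changed only the threshold reused the main fit, so that no sign could change there. A call was lost only for NFIB (-0.50) and MYT1 (0.64), when a change of 1 or more on the log2 scale was also required. That threshold left 1435 genes called higher, 1564 called lower, 4 factors lower and 0 factors higher. Without a filter on low counts the median of the factors was -0.96, since NKX2-2 then entered. Leaving out each of the 6 libraries in turn gave a median of -1.58 to -1.24, and POU3F2, which sets it, ranged over the same values. These fits called 4425 to 4561 genes higher and 4514 to 4779 lower, with 5 factors lower and 1 higher each time. Over the scalings and filters the median of all genes lay between -0.06 and 0.06, with 49.2% to 54.7% of calls higher. Same-numbered libraries deviated together little (correlations of 0.001, 0.030 and 0.025 over 11060 genes). Control replicates 2 and 3 correlated best with their own number, and control replicate 1 with OC2-OE replicate 3 (0.005). Correlations this small, from 3 libraries in a group, cannot decide whether the numbers pair the samples. With the replicate number as a block, 4734 genes were called higher and 4908 lower, with 1 and 5 factors among them. Counting error limits ISL1, POU3F2 and NKX2-2.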

Other observations

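The nearest tested genes of the other 4 factors were examined in the same way, beside 28.7% of all tested genes called lower and 27.8% called higher. Around ISL1, which was not called, 4 of 6 neighbours rose and none fell, with a median log2 fold change of 0.79. ITGA2, an integrin subunit gene 1594.6 kb away, rose by 1.99 (adjusted p = 4.02e-43 by edgeR's quasi-likelihood test), from 6.90 ± 0.89 to 27.6 ± 1.64 CPM (SD, n = 3), and EMB, PARP8 and ITGA1 rose by 0.81, 0.76 and 0.24. Near NKX2-2, which was close to undetected, the islet long noncoding RNA BETALINC1 at 16.1 kb was at 1.81 ± 0.25 and 1.32 ± 0.32 CPM (SD, n = 3) and was not called (it was named with its value known), LINC00261 fell by 0.19, KIZ rose by 1.06 and XRN2 by 0.13. Around NFIB, MPDZ rose by 0.55 and TTC39B by 0.89, and LURAP1L fell by 0.36. Around POU3F2, MMS22L and KLHL32 fell by 0.63 and 0.66, and FBXL4, at 29.1 kb the nearest, rose by 0.30.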
